A study of Mus musculus with 6 samples.

Results

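The genes described here are 42 genes of the lysosome, comprising 21 acid hydrolases, 3 lumenal cofactors, 7 membrane proteins, the transcription factor Tfeb and 10 genes of the proton pump. They were named as a list by function, with earlier results of these data known, and the array probes annotated to each symbol were looked up. Of the 42 genes, 40 had a probe, and 38 of these were bright enough to be tested among the 12382 genes tested in all. Cd68 and Atp6v0c were not paired with a probe in the annotation used here, and Scpep1 and Tfeb lay under the brightness filter.

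RNA was measured on Illumina mouse arrays in antigen presenting cells from the lungs of female C57BL/6 mice. There were 3 groups of 2 arrays each. In the first, mice lacking Spp1, the gene of the secreted protein osteopontin, had breathed cigarette smoke for 4 months (Spp1-/- smoke). In the second, wild type mice had breathed smoke for the same time (WT smoke), and in the third, wild type mice had been kept in room air (WT air). Spp1-/- mice in room air were not among the samples, and neither the age of the mice nor the number pooled per array is stated. The labels do not say whether both arrays of a group hold RNA of separate mice, so the error terms below describe the difference between arrays, whose source is not given.

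Lysosomes are acidic organelles in which phagocytes break down material they have taken up, and lung macrophages are rich in them. The vacuolar proton pump (V-ATPase) acidifies the lumen, soluble hydrolases cut sugars, lipids, proteins and phosphate esters there, and heavily glycosylated membrane proteins line the limiting membrane. The transcription factors Tfeb and Tfe3 are known to raise many lysosomal genes together through E-box elements near their start sites.

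Values are log2 intensities as deposited, between a lowest value of 6.62 and a highest of 16.01, and the median probe of each array stood at 7.26. A gene was read by its brightest probe, and a level is not set against that of another probe. Differences were tested with limma over all 12382 genes, and a gene was called at a Benjamini-Hochberg adjusted p under 0.05. Across all probes, arrays of a group correlated with r = 0.994 in Spp1-/- smoke, 0.992 in WT smoke and 0.977 in WT air. The annotation used here gave Spp1 no probe, and the genotype label could therefore not be checked on the targeted gene.

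Of the 12 measured macrophage markers, Lyz2 and Chil3 were the brightest, with group means above 15, while Fcgr1 lay between 8.69 and 8.89 and Siglecf between 7.44 and 7.66. Of the 10 dendritic cell markers, Flt3, Xcr1 and Cd209a lay near the median of all probes, with group means between 7.05 and 7.36, whereas Irf8, between 11.37 and 11.60, and Ccr7, between 9.59 and 9.78, lay well above it. The mean level of the dendritic cell markers was 8.97 and 8.93 in Spp1-/- smoke, 8.89 and 8.93 in WT smoke, and 8.86 and 8.64 in WT air. The preparations also held transcripts of other lung cells, and these moved with exposure. The mean level of 13 lung epithelium markers was 10.01 and 9.78 in Spp1-/- smoke, 9.83 and 10.27 in WT smoke, and 11.61 and 11.85 in WT air. The 9 endothelium markers had mean levels from 8.77 to 9.01 in Spp1-/- smoke, from 8.91 to 9.15 in WT smoke and from 11.16 to 11.36 in WT air, and the 10 fibroblast and smooth muscle markers from 8.91 to 9.19, from 8.96 to 9.05 and from 10.65 to 10.82 in the same groups. In WT smoke against WT air, 9 of 11 tested epithelium markers, 7 of 9 endothelium markers and 9 of 9 fibroblast and smooth muscle markers were called lower, as were 4 of 5 genes of antigen presentation, 1 of 2 B cell and 3 of 4 T cell markers. Of the neutrophil markers 1 of 5 was called higher, and of the dendritic cell markers 1 of 9. The latter was Itgae, with group means of 8.62 in WT air and 10.66 in WT smoke (adjusted p = 0.00899). Of the 9 dendritic cell markers, 4 had positive and 5 negative differences, the lowest being that of Batf3 (-0.53, not called). Between the genotypes none of these markers was called. In bulk samples such as these, fewer cells of a type and less RNA per cell cannot be told apart.

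In wild type mice, many lysosomal genes were higher after smoke, and none that was tested was called lower. The largest rises were those of the pump subunit genes Atp6v1c1, 5.85-fold, and Atp6v1h, 4.01-fold, of Cd63, a tetraspanin of the late endosomal and lysosomal membrane, 3.99-fold, and of Lgmn, the asparaginyl endopeptidase legumain, 3.35-fold. Of the 38 tested genes, 23 were called higher in WT smoke than in WT air, against 11.1% of all tested genes, and 0 were called lower, against 10.3%. The list was chosen with earlier results of these data known, and the part of that choice in these counts was not tested. The rises were spread over the roles, with 11 of 20 tested hydrolase genes, 1 of 3 cofactor genes, 4 of 6 membrane protein genes and 7 of 9 pump genes. The median log2 difference was 0.78 over the 38 genes and 0.04 over all tested genes, and 16 of the 23 rises were at least 2-fold.

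**Figure D1:**
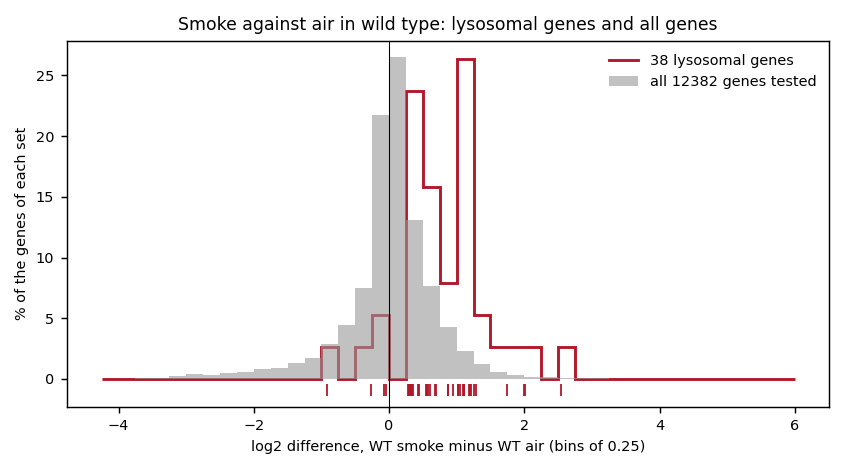
Share of genes (%) by log2 difference, WT smoke minus WT air, in bins of 0.25, for the 38 tested lysosomal genes (red line, with a tick for each gene) and all 12382 tested genes (grey). The lysosomal genes have a median of 0.78 and run from -0.92 to 2.55, and all genes have a median of 0.04.

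Which of these genes passed depended on the 2 WT smoke arrays. Without WT smoke replicate 1, 10 of the 23 passed, and without WT smoke replicate 2, 11 did, while 2.41% and 2.92% of all genes were called higher in those fits. In each of these refits all 23 genes kept a positive difference, the smallest being 0.48. Leaving out either Spp1-/- smoke array, which lends only its spread to this comparison, left 18, with 5.74% of all genes called higher. Across all 17 alternative settings 9 genes kept their call, namely Acp2, Acp5, Grn, Lamp1, Cd63, Atp6v0d1, Atp6v1c1, Atp6v1e1 and Atp6v1h. Because the filter uses brightness over all arrays, a gene that is dim in air can enter through its smoke arrays. With no filter, 22 of the 40 measured genes were called higher, against 6.41% of all genes.

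The plot of levels by array shows the same pattern gene by gene. Both WT smoke arrays lay above both WT air arrays for 34 of the 38 genes and below them for 3. Such separation was common, since of all 12382 tested genes 4306 lay above and 3068 below. The mean of the 38 genes was 12.33 and 12.42 in Spp1-/- smoke, 12.41 and 12.38 in WT smoke, and 11.62 and 11.58 in WT air, and the 4 smoke arrays lay together and above both air arrays. The 12 measured macrophage markers had mean levels of 12.18 and 12.37 in Spp1-/- smoke, 12.19 and 12.18 in WT smoke, and 11.88 and 11.79 in WT air. Of these markers, 3 of 12 were called higher in WT smoke, namely Car4, Itgax and Pparg. After each array was centred on the macrophage marker mean, a setting chosen after the data had been seen, 17 of the 38 lysosomal genes were called higher and 2 lower, with 4.39% of all genes higher and 18.04% lower. That centring moved the median difference of all tested genes to -0.30. The part of these markers, and of those of other lung cells, in the lysosomal differences was not tested.

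**Figure D2:**
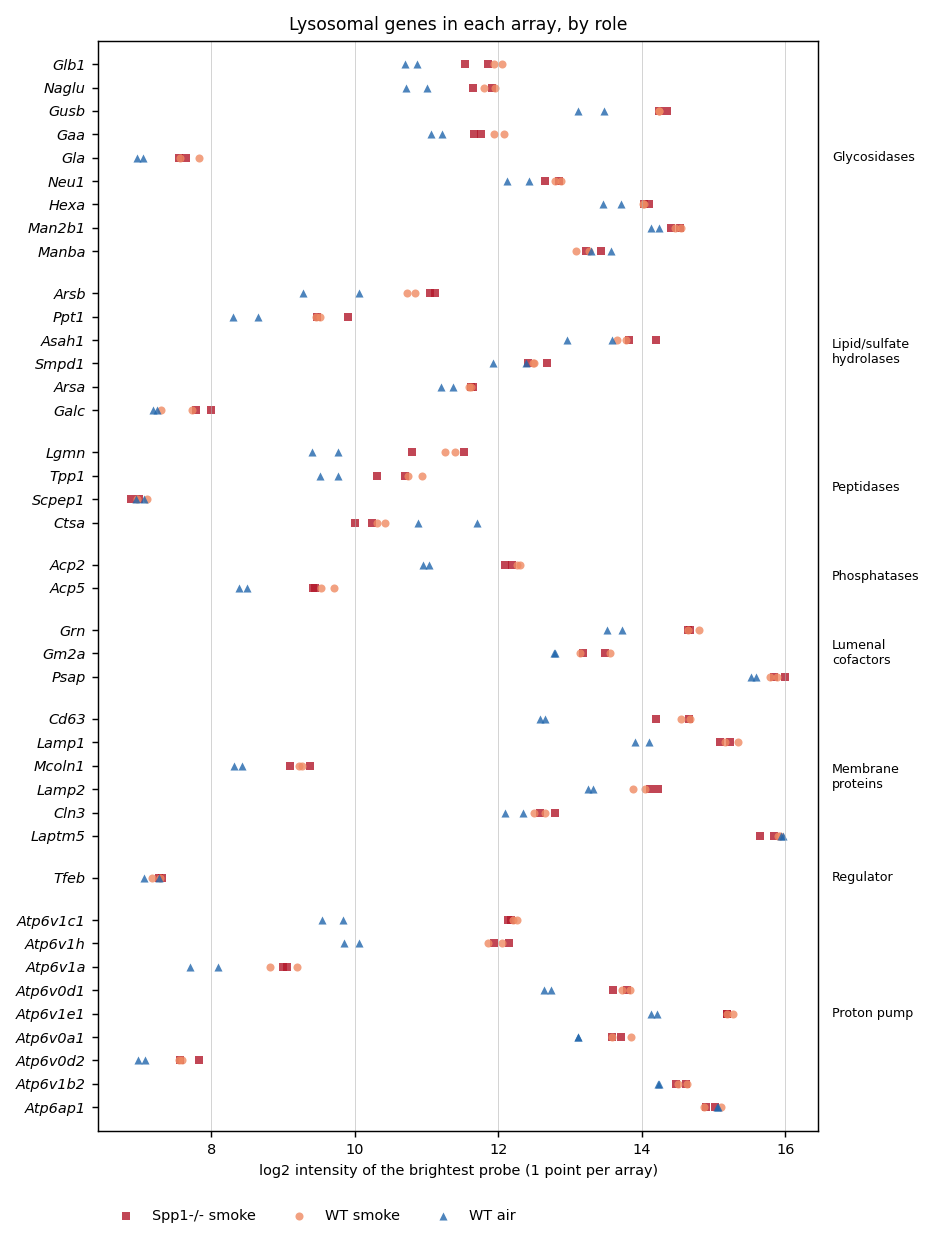
Log2 intensity (x axis) of 40 lysosomal genes in each of the 6 arrays, grouped by role. Red squares are Spp1-/- smoke, orange circles WT smoke and blue triangles WT air; the 4 smoke points lie to the right of both air points for most genes, and to the left of both for Ctsa and Laptm5.

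The sequences near the start sites of 4 of these genes are shown because lysosomal genes that rise together are known to share the E-box read by Tfeb and Tfe3. They come from RefSeq promoter windows of the GRCm38.p6 build, each from 250 bases before to 50 after a start, which were matched for 37 of the 42 genes. The letters CACGTG, searched on both strands, were found in the windows of 12 of the 37 genes (32.4%), against 8.09% of all 27025 genes with a window and 7.15% of the 32851 windows. The longer TCACGTG, which contains it, was found in the same 12 genes, against 4.29% of all genes, and TCACGTGA, which contains both, in 6 of the 37 (16.2%), against 1.12% of all genes. Each stretch has 80 bases, read 5′ to 3′ on the strand of the gene, with CACGTG in capitals. The genes were chosen after their values had been seen, 3 that rose and Ctsa, which did not.
Lamp1, chr8:13159086-13159165, plus strand: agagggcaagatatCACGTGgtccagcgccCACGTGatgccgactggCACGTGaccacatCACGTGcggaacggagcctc
Mcoln1, chr8:3500424-3500503, plus strand: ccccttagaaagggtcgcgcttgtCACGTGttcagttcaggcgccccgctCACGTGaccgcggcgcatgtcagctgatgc
Atp6v0d1, chr8:105566025-105566104, minus strand: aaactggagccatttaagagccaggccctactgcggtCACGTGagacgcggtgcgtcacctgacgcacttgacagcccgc
Ctsa, chr2:164833732-164833811, plus strand: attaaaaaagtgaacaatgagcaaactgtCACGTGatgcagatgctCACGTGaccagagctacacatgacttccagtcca

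Lamp1 held 4 copies within 61 bases before its start, Mcoln1 held 2, and Atp6v0d1 held 1 at its start. The other genes with the motif were Gla, Glb1, Gaa, Naglu, Arsa, Lgmn, Cln3 and Atp6v1a. Of the 20 genes called higher in WT smoke that had a window, 9 held CACGTG, and of the 13 tested genes that were not called and had a window, 3 did (Arsa, Ctsa and Cln3). Ctsa held 2 copies around its start and had lower values in smoke. A match describes letters in a window and not binding.

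Among the glycosidases, which remove sugars from glycolipids, glycogen and glycosaminoglycans, 5 of 9 rose. Glb1, the β-galactosidase, read 11.85 and 11.53 in Spp1-/- smoke, 11.94 and 12.05 in WT smoke, and 10.70 and 10.87 in WT air. All 4 smoke arrays stood above both air arrays, and the WT smoke difference was 1.21 ± 0.15 (log2, SE; adjusted p = 0.00669). Naglu, which cuts N-acetylglucosamine from heparan sulfate, read 11.65 and 11.91 in Spp1-/- smoke, 11.95 and 11.80 in WT smoke, and 10.71 and 11.01 in WT air, again with no overlap between smoke and air (difference 1.02 ± 0.16, adjusted p = 0.0132). Gusb, the β-glucuronidase, read 14.24 and 14.35 in Spp1-/- smoke, 14.24 and 14.24 in WT smoke, and 13.47 and 13.11 in WT air. It was 1.93-fold higher in WT smoke (adjusted p = 0.0125), with the smoke arrays close together and the air arrays further apart.

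Gaa, the acid α-glucosidase that degrades glycogen, read 11.76 and 11.66 in Spp1-/- smoke, 12.08 and 11.94 in WT smoke, and 11.21 and 11.07 in WT air. The 3 groups did not overlap, and WT smoke was 1.83-fold above WT air (adjusted p = 0.00813). Gla, the α-galactosidase A, was dim, at 7.55 and 7.65 in Spp1-/- smoke, 7.56 and 7.83 in WT smoke, and 6.97 and 7.05 in WT air. Its air values lay below the median of all probes, and it entered the test through its smoke arrays (difference 0.69 ± 0.13, adjusted p = 0.0204). With the floor of the scale removed, its difference was 1.43 (adjusted p = 0.00882).

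The remaining glycosidases were not called. Hexa, the α subunit of β-hexosaminidase, read 14.03 and 14.10 in Spp1-/- smoke, 14.01 and 14.02 in WT smoke, and 13.46 and 13.71 in WT air, with smoke above air throughout (difference 0.43 ± 0.12, adjusted p = 0.0602). The sialidase Neu1 differed by 0.56 (adjusted p = 0.0539), the α-mannosidase Man2b1 by 0.32 (adjusted p = 0.0931) and the β-mannosidase Manba by -0.26 (adjusted p = 0.296). The other probe of Manba, with a mean of 9.87, gave -0.73. Without WT smoke replicate 1, Gla, Gaa, Gusb and Naglu missed the threshold (adjusted p between 0.0540 and 0.0891), and without WT smoke replicate 2, Gla, Glb1, Gusb and Naglu did (between 0.0524 and 0.0969). Gla also missed it without either Spp1-/- smoke array (adjusted p = 0.0562). Glb1 was carried by its brightest probe, since its 3 other kept probes, all with means from 7.36 to 7.41, differed by -0.03, -0.23 and -0.16.

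Of the 6 hydrolases of lipids and sulfate esters, 2 rose. Ppt1, the thioesterase that takes palmitate off proteins, read 9.47 and 9.90 in Spp1-/- smoke, 9.52 and 9.46 in WT smoke, and 8.65 and 8.30 in WT air (difference 1.02 ± 0.19, adjusted p = 0.0219). Arsb, the sulfatase acting on dermatan and chondroitin sulfate, read 11.04 and 11.12 in Spp1-/- smoke, 10.84 and 10.73 in WT smoke, and 10.06 and 9.28 in WT air. Smoke arrays exceeded air arrays for both genes, although the WT air arrays of Arsb were far apart (difference 1.11 ± 0.26, adjusted p = 0.0387). Neither passed without WT smoke replicate 1 (adjusted p = 0.123 for Ppt1 and 0.179 for Arsb) or replicate 2 (0.103 and 0.142), and Arsb did not pass without either Spp1-/- smoke array (adjusted p = 0.0911).

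The other 4 genes of this role, all of sphingolipid breakdown, had positive differences between 0.30 and 0.45 that were not called. They were the acid ceramidase Asah1 (adjusted p = 0.282), the acid sphingomyelinase Smpd1 (0.274), the galactocerebrosidase Galc (0.301) and the sulfatide sulfatase Arsa (0.0898). Galc was dim, at 7.79 and 7.99 in Spp1-/- smoke, 7.73 and 7.29 in WT smoke, and 7.24 and 7.18 in WT air. The air values and the lower of the WT smoke values lay near the median of all probes, and Galc entered the test through its smoke arrays. Asah1 read 13.78 and 13.65 in WT smoke, while its WT air arrays were far apart, at 13.58 and 12.96. Without WT air replicate 1, which leaves only the lower air array, its difference was 0.76.

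Among the peptidases, Lgmn and Tpp1 rose. Lgmn read 10.80 and 11.51 in Spp1-/- smoke, 11.40 and 11.25 in WT smoke, and 9.41 and 9.76 in WT air (difference 1.74 ± 0.27, adjusted p = 0.0123). Tpp1, a tripeptidyl peptidase, read 10.30 and 10.69 in Spp1-/- smoke, 10.75 and 10.93 in WT smoke, and 9.76 and 9.51 in WT air (difference 1.20 ± 0.18, adjusted p = 0.0116). For both, every smoke array was above every air array. They missed the threshold without WT smoke replicate 1 (adjusted p between 0.0633 and 0.0845) and without WT smoke replicate 2 (between 0.0686 and 0.0763).

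Ctsa, the carboxypeptidase cathepsin A that also shields β-galactosidase and sialidase in a complex, had the most negative of the 4 negative differences, the others being those of Manba, Laptm5 and Atp6ap1. Ctsa read 10.00 and 10.24 in Spp1-/- smoke, 10.31 and 10.42 in WT smoke, and 10.88 and 11.70 in WT air. Smoke arrays lay below air arrays, but the difference in wild type of -0.92 ± 0.28 was not called (adjusted p = 0.0771). Without WT air replicate 1 it was -1.33, and under a stricter brightness filter it was called (adjusted p = 0.0410). The WT air arrays were far apart, and replicate 1 lay closer to the smoke arrays. The other kept probes of Ctsa, dim with means of 7.64 and 7.36, gave 0.38 and 0.09. Its promoter stretch is among those shown above. Scpep1, a serine carboxypeptidase, lay between 6.88 and 7.11 on all 6 arrays, below the median of all probes, and was not tested.

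Both acid phosphatases rose with little spread. Acp2, the lysosomal acid phosphatase, read 12.10 and 12.19 in Spp1-/- smoke, 12.27 and 12.30 in WT smoke, and 10.95 and 11.03 in WT air, a 2.44-fold rise in WT smoke (adjusted p = 0.00240). Acp5, the tartrate-resistant phosphatase of osteoclasts and macrophages, read 9.42 and 9.44 in Spp1-/- smoke, 9.53 and 9.71 in WT smoke, and 8.39 and 8.50 in WT air, a 2.27-fold rise (adjusted p = 0.00349). The groups kept well apart for both genes. A dimmer probe of Acp2, with a mean of 8.84, went the other way by -0.96, whereas its second brightest probe gave 1.61.

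The cofactors act on the enzymes rather than as enzymes. Grn, the gene of progranulin, a secreted and lysosomal glycoprotein, read 14.64 and 14.67 in Spp1-/- smoke, 14.64 and 14.80 in WT smoke, and 13.51 and 13.73 in WT air, a 2.15-fold rise (adjusted p = 0.00535). Psap, the precursor of the saposins that present sphingolipids to hydrolases, differed by 0.28 (adjusted p = 0.131), and Gm2a, the ganglioside activator, by 0.57 (adjusted p = 0.0876). Psap was read near the top of the scale, at 15.85 to 15.996 in Spp1-/- smoke, 15.79 to 15.88 in WT smoke and 15.52 to 15.59 in WT air. Its other probe, less bright with a mean of 15.32, gave a difference of 0.97, and with the mean of both probes Psap was called (0.63, adjusted p = 0.0127).

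Of the 6 membrane protein genes tested, 4 rose. Cd63 read 14.20 and 14.66 in Spp1-/- smoke, 14.54 and 14.67 in WT smoke, and 12.65 and 12.57 in WT air, with all smoke arrays far above air (difference 1.995 ± 0.17, adjusted p = 0.00307). Lamp1, a major glycoprotein of the lysosomal membrane, read 15.09 and 15.23 in Spp1-/- smoke, 15.16 and 15.35 in WT smoke, and 13.91 and 14.09 in WT air (difference 1.25 ± 0.13, adjusted p = 0.00431). Its relative Lamp2 read 14.11 and 14.23 in Spp1-/- smoke, 14.05 and 13.87 in WT smoke, and 13.32 and 13.24 in WT air (difference 0.68 ± 0.11, adjusted p = 0.0158). Smoke and air did not overlap for any of these genes, and the difference of Lamp2 was about the same on its 4 other probes with means above 9, at 0.75, 0.61, 0.85 and 0.89. A second bright probe of Cd63, with a mean of 12.68, gave 0.39.

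Mcoln1, the calcium channel of the lysosomal membrane, read 9.10 and 9.37 in Spp1-/- smoke, 9.22 and 9.26 in WT smoke, and 8.43 and 8.31 in WT air. The smoke arrays again lay above the air arrays (difference 0.87 ± 0.13, adjusted p = 0.0114). Cln3, the gene of Batten disease, differed by 0.36 (adjusted p = 0.143). Laptm5, a lysosomal membrane protein of blood cells, read 15.85 and 15.65 in Spp1-/- smoke, 15.89 and 15.93 in WT smoke, and 15.94 and 15.97 in WT air, close to the highest value of the table (difference -0.05, adjusted p = 0.819). Lamp2 and Mcoln1 missed the threshold without WT smoke replicate 1 (adjusted p between 0.0743 and 0.0963) and without WT smoke replicate 2 (between 0.0566 and 0.0755).

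The proton pump joins a cytosolic V1 sector, which splits ATP, to a membrane V0 sector, which carries protons, and the loss or gain of the V1 C subunit is a known step in its assembly. Of the 9 pump genes measured, 7 rose, 4 of them V1 genes and 3 V0 genes. Atp6v1c1, a gene of the C subunit, read 12.13 and 12.17 in Spp1-/- smoke, 12.21 and 12.26 in WT smoke, and 9.84 and 9.54 in WT air. The smoke arrays agree within a narrow range far above air (difference 2.55 ± 0.13, adjusted p = 0.00157), and a second probe gave 2.05. Atp6v1h, the regulatory H subunit, read 12.15 and 11.94 in Spp1-/- smoke, 12.05 and 11.85 in WT smoke, and 10.05 and 9.84 in WT air (difference 2.01 ± 0.14, adjusted p = 0.00208). Its other kept probe was dim, with a mean of 7.56, and differed by -0.04.

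The other V1 genes differed less. Atp6v1a, the catalytic A subunit, read 9.05 and 8.999 in Spp1-/- smoke, 9.196 and 8.82 in WT smoke, and 8.09 and 7.70 in WT air (difference 1.11 ± 0.19, adjusted p = 0.0167). Atp6v1e1, of the peripheral stalk, read 15.19 and 15.18 in Spp1-/- smoke, 15.26 and 15.19 in WT smoke, and 14.13 and 14.21 in WT air (difference 1.05 ± 0.10, adjusted p = 0.00324). Smoke exceeded air on every array for both. Atp6v1b2, the nucleotide-binding B subunit, differed by 0.33 and was not called (adjusted p = 0.0824).

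In the membrane sector, Atp6v0d1, the d subunit made in most tissues, read 13.60 and 13.79 in Spp1-/- smoke, 13.72 and 13.83 in WT smoke, and 12.64 and 12.73 in WT air (difference 1.09 ± 0.12, adjusted p = 0.00462). Its counterpart Atp6v0d2, known from osteoclasts and macrophages, was dim, at 7.56 and 7.83 in Spp1-/- smoke, 7.59 and 7.55 in WT smoke, and 7.07 and 6.97 in WT air (difference 0.55 ± 0.13, adjusted p = 0.0357). Its air values lay below the median of all probes, and it entered the test through its smoke arrays. With the floor of the scale removed, its difference was 1.19 (adjusted p = 0.0148). Atp6v0a1, an a subunit of the proton channel, read 13.71 and 13.58 in Spp1-/- smoke, 13.85 and 13.59 in WT smoke, and 13.11 and 13.11 in WT air (difference 0.61 ± 0.13, adjusted p = 0.0277). The accessory subunit gene Atp6ap1 overlapped between the groups, at 15.02 and 14.89 in Spp1-/- smoke, 15.10 and 14.87 in WT smoke, and 15.06 and 15.05 in WT air (difference -0.07, adjusted p = 0.758).

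Of the pump genes, Atp6v0d2, Atp6v1a and Atp6v0a1 missed the threshold without WT smoke replicate 1 (adjusted p between 0.0898 and 0.168) and without either Spp1-/- smoke array (between 0.0518 and 0.0679). Atp6v0d2 and Atp6v0a1 also missed it without WT smoke replicate 2 (between 0.0569 and 0.140) and without WT air replicate 2 (between 0.0535 and 0.0772). Over the 17 alternatives, the adjusted p of Atp6v0a1 ran from 0.0176 to 0.570, and over the 16 that tested it, that of Atp6v0d2 from 0.0123 to 0.303. That of Atp6v1c1 ran from 0.000258 to 0.0241.

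Other probes of the same genes did not always follow the brightest one. Of the 23 genes called higher, 10 had other kept probes, and of these 23 probes 16 had positive and 7 negative differences. With the mean of a gene's kept probes, the difference in WT smoke was 0.98 for Atp6v1h, 0.87 for Cd63, 0.59 for Atp6v0d1, 0.56 for Acp2, 0.52 for Arsb, 0.20 for Glb1 and 0.17 for Atp6v0a1. Glb1 (adjusted p = 0.271) and Atp6v0a1 (adjusted p = 0.570) were then not called, and the others were, with adjusted p from 0.00531 for Cd63 to 0.0471 for Arsb. Ctsa, not called in either case, differed by -0.15.

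Tfeb itself was read at 7.27 and 7.31 in Spp1-/- smoke, 7.29 and 7.17 in WT smoke, and 7.06 and 7.27 in WT air. These values lie around the median of all probes, the groups of wild type arrays overlapped, and Tfeb was not tested. Its relative Mitf differed by 0.05 in WT smoke against WT air and was not called (adjusted p = 0.817). Tfe3, another relative, read 8.44 and 8.59 in Spp1-/- smoke and was not called there against WT air (difference 0.17, adjusted p = 0.315). Nor was it called in limma between Spp1-/- smoke and WT smoke (difference -0.35, unadjusted p = 0.0180, adjusted p = 0.9997). It was called higher in WT smoke, at 8.84 and 8.88, than in WT air, at 8.32 and 8.37 (difference 0.52 ± 0.10, adjusted p = 0.0244). Tfe3 missed the threshold without WT smoke replicate 1 or replicate 2, and without either Spp1-/- smoke array.

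Other lysosomal genes, from a list of 47 without cathepsins, gave a smaller share of calls. Of the 40 tested, 12 were called higher in WT smoke than in WT air and 0 lower, with a median log2 difference of 0.39. Of 11 further pump genes tested, 3 were called higher and 1 lower, with a median of 0.18. Of all tested genes, 11.1% were called higher and 10.3% lower, with a median of 0.04. Gpnmb, a glycoprotein of macrophage lysosomes, read 15.23 and 15.34 in Spp1-/- smoke, 15.15 and 15.29 in WT smoke, and 13.82 and 13.49 in WT air (difference 1.57 ± 0.15, adjusted p = 0.00346). Rragc, a GTPase of nutrient sensing at the lysosome, differed by 1.13 (adjusted p = 0.00708), and Lamtor1, which anchors such GTPases there, by 1.001 (adjusted p = 0.00794). The sialic acid exporter gene Slc17a5 differed by 1.30 (adjusted p = 0.00799) and the V0 gene Atp6v0a2 by 0.92 (adjusted p = 0.00742). These 5 had the smallest p among the genes called higher, and the gene called lower was Atp6v0e2, another V0 gene (-0.51, adjusted p = 0.0498). Of these 16 calls in the list of other lysosomal and pump genes, 2 were left without WT smoke replicate 1, namely Gpnmb and Slc17a5. Without WT smoke replicate 2 there were 4, namely Atp6v0a2, Gpnmb, Lamtor1 and Rragc, and without either Spp1-/- smoke array 11. The shares of all genes called higher in these refits are those given above beside the lysosomal genes. Tcirg1, an a subunit of macrophage and osteoclast pumps, differed by 0.01 (adjusted p = 0.984).

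The second comparison asked whether lysosomal genes differed between Spp1-/- and wild type mice that had both breathed smoke. The 38 genes had differences between -0.34 and 0.38 on the log2 scale, with a median of -0.03 against -0.003 for all genes. The lowest, that of Tpp1, was -0.54 without Spp1-/- smoke replicate 2. The highest, that of Galc, was 0.60 without WT smoke replicate 1 and 0.65 with the floor of the scale removed. None was called in limma, as was none of all 12382 genes (0%), and 1 of the 38 had an unadjusted p under 0.05, against 4.36% of all genes. This was Gaa, which read 11.76 and 11.66 in Spp1-/- smoke and 12.08 and 11.94 in WT smoke (difference -0.30, unadjusted p = 0.0452, adjusted p = 0.9997). Its 95% interval ran from -0.59 to -0.01.

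The next smallest p-values belonged to Galc, Glb1 and Tpp1, also not called. Galc read 7.79 and 7.99 in Spp1-/- smoke and 7.73 and 7.29 in WT smoke, with a difference of 0.38 (95% interval -0.06 to 0.82). Glb1 was lower in both Spp1-/- smoke arrays, at 11.85 and 11.53 against 11.94 and 12.05 in WT smoke (-0.30, interval -0.68 to 0.07). Tpp1 likewise stood at 10.30 and 10.69 in Spp1-/- smoke and 10.75 and 10.93 in WT smoke (-0.34, interval -0.80 to 0.11). Both Spp1-/- smoke arrays lay above both WT smoke arrays for 6 of the 38 genes and below them for 8. Of all 12382 tested genes, 2270 lay above and 2413 below.

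By role, median differences between the genotypes were -0.06 for the hydrolases, -0.05 for the membrane proteins and -0.03 for the pump. All 6 genes of lipid and sulfate ester hydrolases had positive differences, from 0.03 to 0.38, and all 3 peptidases and both phosphatases had negative ones, none of them called. On the deposited scale the 95% intervals of all 38 genes lay between -0.96 and 0.96. Their half-widths ran from 0.24 to 0.71, with a median of 0.33. For Galc, Gla and Atp6v0d2, dim genes whose smoke differences were larger with the floor removed, these intervals do not bound the change on that other scale. Atp6v1c1 differed by -0.09 (interval -0.42 to 0.24), Cd63 by -0.18 (interval -0.62 to 0.26) and Lamp1 by -0.10 (interval -0.42 to 0.23).

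**Figure D3:**
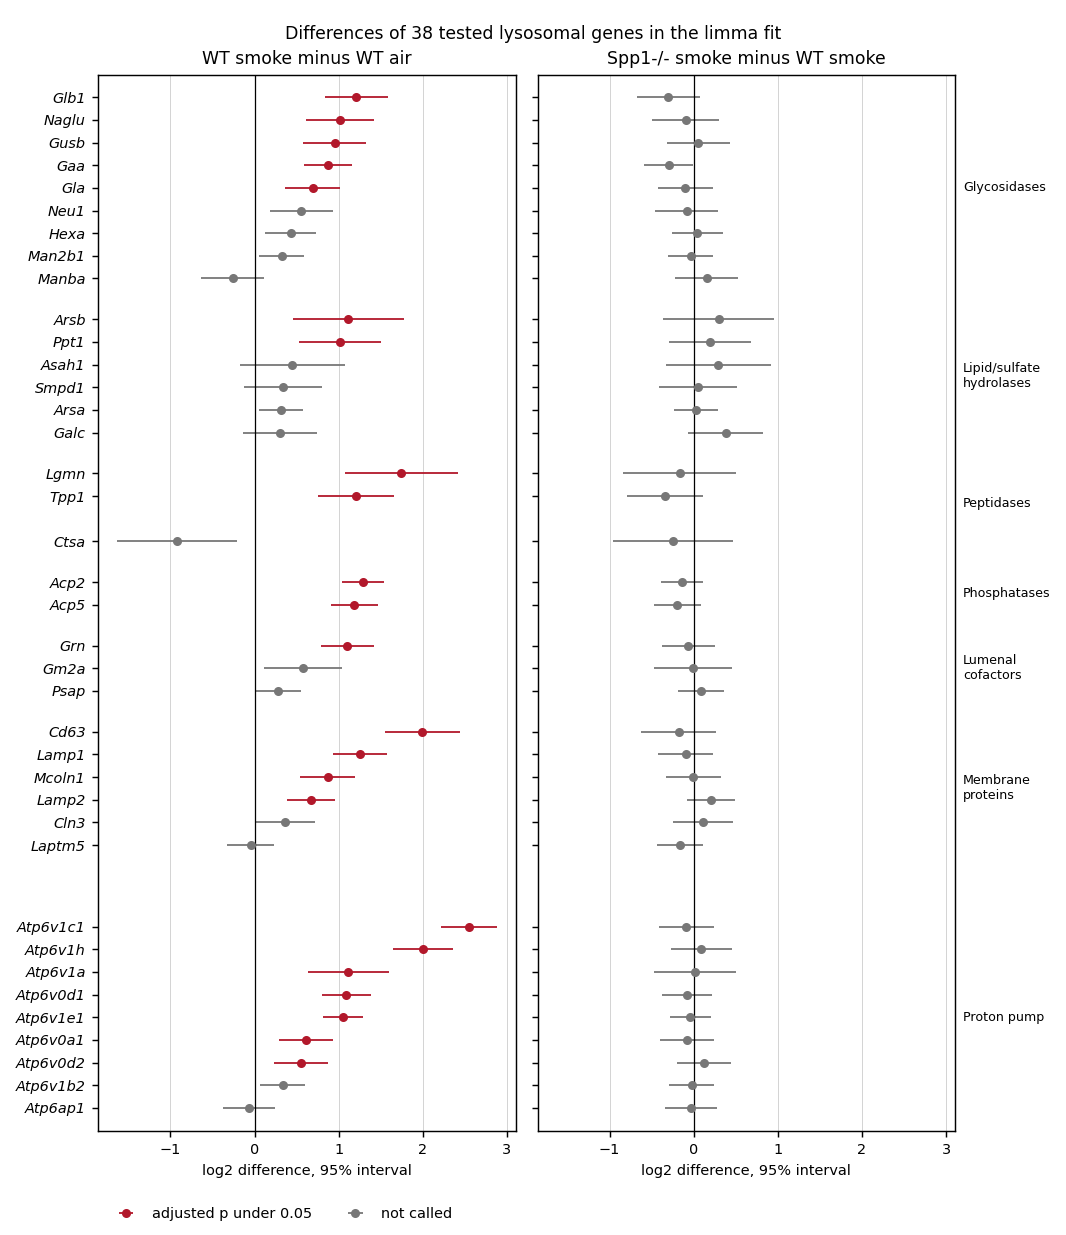
Log2 differences with 95% intervals of the 38 tested lysosomal genes, WT smoke minus WT air on the left and Spp1-/- smoke minus WT smoke on the right, grouped by role; red marks an adjusted p under 0.05. On the left 23 genes are called, up to 2.55 for Atp6v1c1, and on the right every point lies between -0.34 and 0.38.

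Spp1-/- smoke was also set against WT air, where genotype and exposure differ together and the air arrays are those of the first comparison. There 25 of the 38 genes were called higher, against 12.2% of all genes, and 1 lower, against 10.5%. Side by side, Atp6v1c1 differed by 2.46 here and 2.55 in the first comparison, Atp6v1h by 2.10 and 2.01, Cd63 by 1.81 and 1.995, Lgmn by 1.57 and 1.74, and Lamp1 by 1.16 and 1.25. The gene called lower was Ctsa (-1.17, adjusted p = 0.0398), and Hexa (0.48, adjusted p = 0.0451) and Galc (0.68, adjusted p = 0.0474) were called here but not in the first comparison. With the mean of a gene's probes, no brightness filter or only the compared groups fitted, 0 lysosomal genes were called lower. Over all genes, 10.1%, 6.33% and 7.53% were called lower in these settings. The other kept probes of Ctsa, with means of 7.64 and 7.36, gave 0.36 and -0.08. Galc entered the test through its smoke arrays, and its other kept probe, with a mean of 7.35, gave 0.21. Without Spp1-/- smoke replicate 1, 13 of the 38 genes were called, while 2.94% of all genes were called higher and 3.97% lower. Without Spp1-/- smoke replicate 2, 6 were called, with 2.33% of all genes higher and 3.11% lower. Ctsa, Hexa and Galc were not among them (adjusted p from 0.132 to 0.226). Without either WT smoke array, Ctsa (0.0880) and Hexa (0.0987) missed the threshold, as did Galc without WT air replicate 1 (0.0647) or 2 (0.0975) and Hexa without WT air replicate 1 (0.0722).

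**Figure D4:**
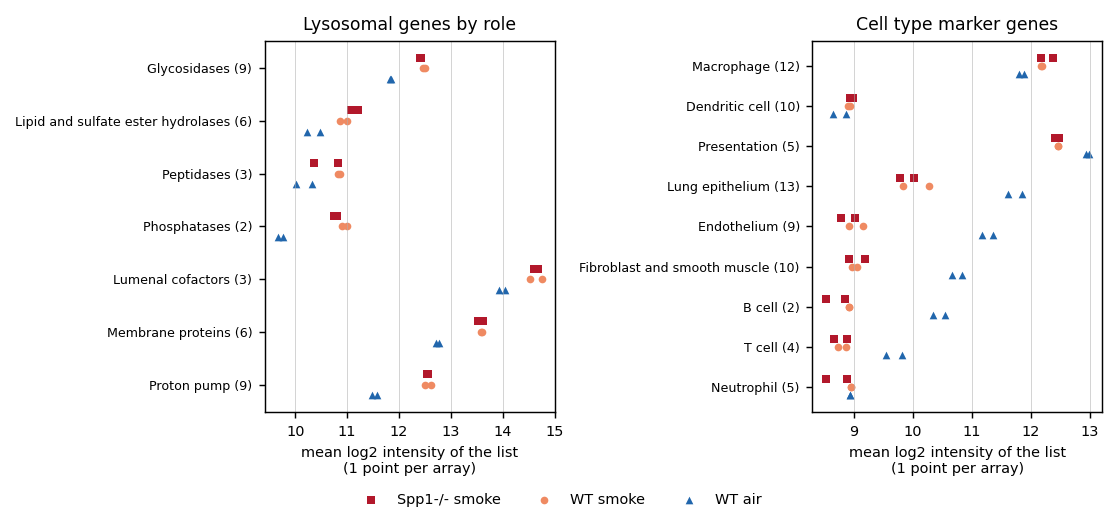
Mean log2 intensity (x axis) of each role of lysosomal genes (left) and of each list of cell type markers (right) in the 6 arrays, with the number of genes in brackets. Lysosomal roles lie higher in the 4 smoke arrays than in the 2 air arrays, and epithelium, endothelium and fibroblast markers lie lower.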

How the data were processed

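The authors deposited log2 intensities of 45281 probes on 6 arrays. Per the labels' protocols, Trizol RNA was amplified to biotinylated cRNA (Ambion MessageAmp) and hybridised, and limma is named without a version per the submitters' processing notes. Once sorted, the arrays were nearly identical (largest gap 0.00562). The sources used here do not state the background correction. Another table's 12 columns of raw signal and detection p matched no label by name and were left out.

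Probe symbols came from the platform annotation, updated by Entrez identifier through RefSeq (GRCm38.p6). Of the probes, 34885 had 1 symbol, 18 had several and 10378 were unnamed. Probes in the upper 50% by their mean across the arrays were kept, and each gene was read by its brightest probe. All 6 arrays were fitted with limma 3.58.1 in R 4.3.3, with 1 coefficient per group and 3 residual and 2.24 prior degrees of freedom. The steps were tested on simulated data. An exact permutation of 2 against 2 arrays cannot pass 0.05, so none was used. The number of arrays limits the precision.

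The members and lists were chosen with earlier results of these data known. All 42 members are named. Per-array values are given for called members, the 4 with the smallest p between genotypes and a few markers of the lysosome and pump. Of other lysosomal and pump genes, up to 5 per direction by smallest p are named. Tfe3, Mitf and Tcirg1 were added after their values were seen. Deviations of same-numbered replicates correlated weakly between groups (correlations -0.08, -0.03 and 0.14). With so few replicates per group, these correlations cannot settle whether the numbers pair the samples.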

Additional observations from a re-analysis of the deposited data

How the results depend on the processing

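The share of all genes called higher moved with the setting, also when an array was left out. Between WT smoke and WT air it was 11.1% in the main fit and 5.74% when only the compared groups were fitted. It was 4.23% at 2-fold or more and 4.39% when centred on the macrophage markers. For Spp1-/- smoke against WT air it was 12.2%, with 4.45% at 2-fold or more and 4.14% with that centring. The count of 23 lysosomal genes called between WT smoke and WT air lay between 16 and 25 in the settings that kept every array. It was 18 when only the compared groups were fitted, 16 at 2-fold or more and 19 (17 higher, 2 lower) when centred on the macrophage markers. It ran from 10 to 26 when an array was left out. The count of 26 between Spp1-/- smoke and WT air was 14 at 2-fold or more, 17 when centred on the macrophage markers, and 6 to 26 with an array left out. Other lysosomal and pump genes gave 16 calls, 8 at 2-fold or more and 2 to 23 with an array left out. Between the genotypes 0 lysosomal genes were called in limma in every setting, the smallest adjusted p being 0.563 with array weights. Of all genes, 9 were called with array weights, 8 under the stricter brightness filter and 8 when centred on the macrophage markers. With an intensity trend and robust prior 7 were called, and 6 when only the compared groups were fitted. The other settings that kept every array gave 0. With the replicate block, 23 lysosomal genes were called between WT smoke and WT air (Atp6v0d2 lost its call and Neu1 gained one), 0 between the genotypes and 25 between Spp1-/- smoke and WT air. In that setting, 15 other lysosomal and pump genes were called between WT smoke and WT air. Of all genes, 9.17% were then called higher and 8.98% lower, and 9.91% and 9.21% between Spp1-/- smoke and WT air. Whether the replicate numbers pair the samples could not be settled. Centring on the macrophage markers, a setting chosen after seeing the data, lowered each difference between WT smoke and WT air by the same amount, turned the calls over all genes from 1371 higher and 1274 lower to 544 and 2234, and turned uncalled differences negative for Man2b1 (-0.024), Smpd1 (-0.0076), Galc (-0.045), Arsa (-0.029), Psap (-0.064) and Atp6v1b2 (-0.012). With an array left out, Atp6ap1 ran from -0.187 to 0.049. The mean of a gene's probes gave a median of 0.54 for the hydrolases, against 0.78, and 0.59 for the pump, against 1.05; the cause was not tested. The raw signals could not be normalized with neqc, since their columns matched no label. After an array was left out, its partner was taken to have the spread of the remaining groups. With the floor removed, the dim genes Gla, Galc and Atp6v0d2 differed by 1.43, 0.58 and 1.19.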
